A study of Danio rerio with 13 samples.

Results

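The leukemias hMYC-12 and hMYC-13 carried transcripts of both the B and the T cell program, and they are 2 of the 13 zebrafish acute lymphoblastic leukemias (ALL) in the study. They were picked on 1 measured gene, blnk (ENSDARG00000042722), a B cell adaptor whose level lay between log2 CPM 4 and 8 in these alone of the 12 libraries used. CPM stands for read counts scaled to a common library total, here with TMM factors, and log2 CPM was taken with a prior count of 2. All 13 leukemias came from the rag2:hMYC;lck:eGFP double transgenic line, in which the rag2 promoter of lymphoid precursors drives human MYC and the T cell promoter of lck drives eGFP. GFP-positive cells were sorted from the whole body, a gate for cells in which the lck promoter gave enough GFP. The purity of the sorted cells was not tested, and transcripts of genes of other tissues are described below. Libraries were made from 100 ng of RNA with a stranded poly(A) kit.

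The 2 leukemias were set against 3 libraries called B-type here, hMYC-3, hMYC-4 and hMYC-5, and 7 called T-type, namely hMYC-14, hMYC-2, hMYC-6 and the 4 libraries hMYC-8 to hMYC-11. These names rest on measured levels, since the labels give all 13 leukemias the same line, sort and protocol and put none in a class. Every comparison is therefore a description with no test, and each set is described by the values of its libraries. hMYC-1 was left out. It totals 51808498 counts, close to the 51478946 counts that the 5 libraries hMYC-10 to hMYC-14 hold together. Of 5983 genes with 1 to 9 counts in that sum, 53.7% had the same count in hMYC-1 and 0.150% a lower one, so hMYC-1 holds the counts of the leukemias described here. The other 12 libraries hold 8166453 to 12297780 counts, with 9332051 in hMYC-12 and 10949792 in hMYC-13. hMYC-2, the smallest, stands apart with a TMM factor of 0.808 and widens the T-type range of many genes. The sample descriptions also carry a letter of unstated meaning, which is d in hMYC-12 and hMYC-13, c in the 3 B-type libraries, and c in 3 and d in 4 of the T-type libraries. No B-type library has letter d, so the letter cannot be told apart from the difference between the 2 leukemias and the B-type libraries. The T-type libraries carry both letters.

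B and T lymphocytes descend from shared progenitors and part early, after which each keeps the other's program off. B cells read antigen through surface immunoglobulin, whose signal passes from CD79A and CD79B to the kinases SYK and BTK and the adaptor BLNK, under transcription factors such as EBF1 and PAX5. T cells use the T cell receptor with the coreceptors CD4 and CD8, the kinases LCK and ZAP70, and factors such as GATA3, TCF7 and RUNX3, while precursors of both lineages cut their receptor genes with RAG1 and RAG2. The roles given for genes below are those known in mammals unless zebrafish is named, and symbols in capitals are human forms in the name table. ALL usually follows a single program, and leukemias with both are known in humans as mixed phenotype cases.

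blnk measured 98.5 CPM in hMYC-12 and 25.01 CPM in hMYC-13, against 526, 343 and 491 CPM in the B-type libraries hMYC-3, hMYC-4 and hMYC-5. In the T-type libraries it ran from 0.37 CPM in hMYC-10 over a median of 3.20 to 10.6 CPM in hMYC-2. On the log scale used for the choice, hMYC-12 lay at 6.62 and hMYC-13 at 4.66, and the nearest libraries outside the limits were hMYC-4 at 8.42 and hMYC-2 at 3.43. The counts behind these levels were 972 in hMYC-12 (95% Poisson interval 912 to 1035) and 296 in hMYC-13 (263 to 332), and such intervals cover counting error only. Because these values chose the 2 leukemias, they support nothing further.

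cd79a, the gene of a signalling subunit of the B cell receptor, took the same place without having been used in the choice. It measured 70.5 CPM in hMYC-12 and 18.1 CPM in hMYC-13, against 298, 222 and 147 CPM in the B-type libraries and 1.35 to 8.82 CPM in the T-type libraries. Both leukemias lay below every B-type and above every T-type library. lck, whose product starts T cell receptor signalling and whose promoter drives the GFP used for the sort, measured 1157 CPM in hMYC-12 and 1322 CPM in hMYC-13, against 120, 330 and 45.0 CPM in the B-type libraries. In the T-type libraries lck ran from 1189 over a median of 1374 to 2436 CPM. hMYC-13 therefore lay within the T-type range and hMYC-12 just under its lowest library. By cd79a and lck, the markers that the choice did not use, both leukemias held cd79a above any T-type library together with lck in or just under the T-type range.

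**Figure D1:**
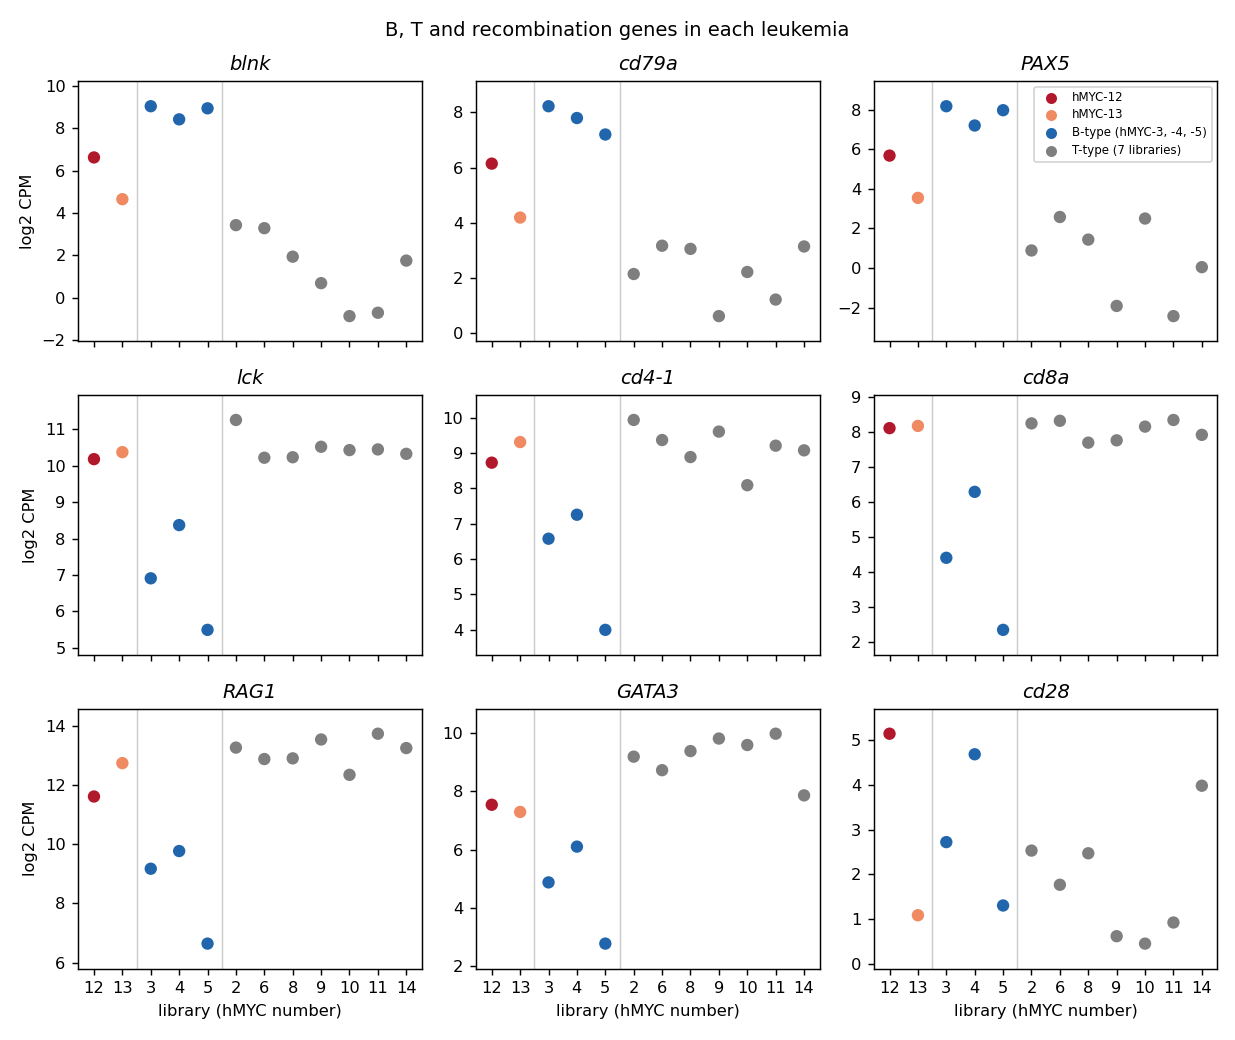
Log2 CPM of 9 genes in 12 libraries, hMYC-12 and hMYC-13 at the left, then the 3 B-type and the 7 T-type libraries, 1 point a library. For blnk, cd79a and PAX5 the 2 leukemias lie between the sets, for lck, cd4-1 and cd8a they lie with or close to the T-type libraries, and for cd28 hMYC-12 lies above all others.

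A library whose RNA is a mixture of B-type and T-type RNA should lie, on the linear CPM scale, the same fraction of the way between the sets for every gene. The fraction was read from 384 genes called B-high here, whose lowest B-type library was at least 4 times the highest T-type library and whose B-type mean was at least 10 CPM. The position of a gene is 0% at the T-type mean and 100% at the B-type mean. hMYC-12 had a median position of 24.0% (quartiles 16.9% and 32.8%), and 375 of the 384 genes (97.7%) were above their highest T-type library. hMYC-13 had a median of 4.06% (quartiles 1.48% and 8.07%), with 223 genes (58.1%) above the highest T-type library. The B program was thus present in both leukemias at different strength, broad in hMYC-12 and faint in hMYC-13. A non-negative least squares fit on the 10 set libraries, over the 11905 genes that reached 10 CPM in any library, gave larger B shares. They were 41.8% in hMYC-12 and 12.6% in hMYC-13, or 36.8% in hMYC-12 and 10.4% in hMYC-13 with square-root weights. In hMYC-12 most of the B share fell on hMYC-4, at 28.8%, or 30.4% with weights, and hMYC-4 also held lck at 330 CPM. In hMYC-13 all of it fell on hMYC-3. Such shares are of whole libraries, so they are not on the scale of the median positions. With the 4 T-type libraries of letter d alone the median positions were 23.8% in hMYC-12 and 5.23% in hMYC-13, while no B-type library carries that letter.

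The T-type libraries give the scale for a small fraction. Each of them, placed in the same way against the other 6, had a median position between -1.33% in hMYC-11 and 1.61% in hMYC-6. The share of B-high genes above the highest of the other T-type libraries was 4.39% in hMYC-9, the lowest, and reached 36.7% in hMYC-6 and 38.9% in hMYC-2. hMYC-13 lay above all 7 on both measures, by a small margin in the median. It was chosen with a blnk level above that of all 7, and blnk is among the B-high genes. Its place above them on genes that vary with blnk was therefore partly built in, to a degree that was not tested. Each B-type library placed against the other B-type libraries had a median between 67.0% in hMYC-4 and 106% in hMYC-5, so the B-type end of the scale is itself uncertain by a factor that carries over to both fractions. A library pooled from bulk cells does not tell fewer cells of a type from less RNA per cell, and a mix of B and T cells and a cell with both programs cannot be told apart here.

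**Figure D2:**
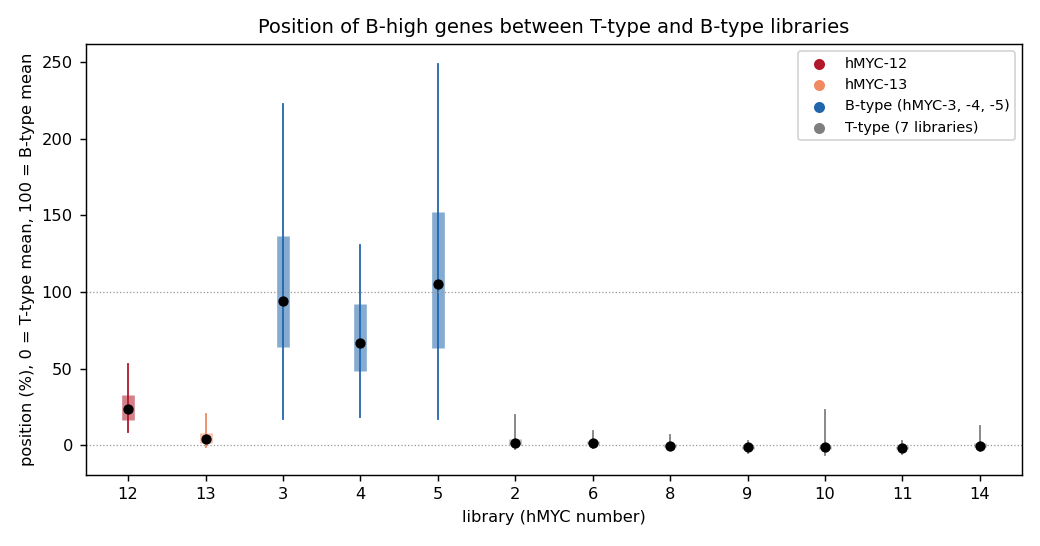
Median position (point), quartiles (thick line) and 5 to 95 percentile range (thin line) of the B-high genes in each of the 12 libraries, in percent, where 0 is the T-type mean and 100 the B-type mean, each B-type or T-type library being placed against the others of its set. hMYC-12 lies at 24.0% and hMYC-13 at 4.06%, with the 7 T-type libraries between -1.33% and 1.61%.

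The list of B cell receptor and signalling genes matched 16 identifiers, of which 14 reached 10 CPM in at least 1 library and 8 were B-high. The 8, with blnk among them, had a median position of 22.8% in hMYC-12 and 4.88% in hMYC-13, beside 24.0% and 4.06% over all B-high genes. They ran from 10.4% for DAPP1 to 39.8% for cd37 in hMYC-12 and from 2.75% for DAPP1 to 9.29% for cd37 in hMYC-13. Summed over the list, the levels were 1101 CPM in hMYC-12 and 316 CPM in hMYC-13, against 2994 to 3808 CPM in the B-type and 118 to 284 CPM in the T-type libraries. hMYC-13 was above the highest T-type sum, that of hMYC-6, by a narrow margin. The sum includes blnk, which chose the 2 leukemias, at 25.01 CPM in hMYC-13 and 9.58 CPM in hMYC-6. Part of the margin was therefore built in by the choice. Neither the sum nor the median position of the 8 genes was computed without blnk, so neither is independent of the choice.

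A band of values that a mixture can reach was computed for each gene from the lowest and highest library of each set, weighted by the fraction, and is called the mixture interval. In hMYC-12, 10 of the 14 receptor genes, with blnk among them, lay in this interval, 2 below and 2 above it. Over all 11905 genes that reached 10 CPM in any library, 77% lay in the interval, 6.64% above it and 16.3% below it. In hMYC-13, 11 lay in the interval, again with blnk, 2 below and 1 above it. Over all genes 64.2% lay in it, 19.2% above it and 16.6% below it. The T-type range alone held 74.3% of all these genes in hMYC-12 and 64.8% in hMYC-13. For genes at large, a place in the interval therefore does not tell a mixture from a T-type level. cd79b, the partner of cd79a, measured 74.6 CPM in hMYC-12 and 18.2 CPM in hMYC-13, against 346, 289 and 207 CPM in the B-type libraries and at most 8.92 CPM in the T-type libraries. SYK, the kinase that takes up the signal, measured 278 CPM in hMYC-12 and 71.7 CPM in hMYC-13, against 1067, 851 and 1314 CPM in the B-type libraries and at most 43.4 CPM in the T-type libraries. Both genes were in the interval in both leukemias.

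BTK, the next kinase in the chain, was in the interval in hMYC-13 with 4.48 CPM and slightly under it in hMYC-12, where it measured 17.2 CPM against a lower limit of 18.9 CPM. cd37, a tetraspanin of mature B cells, was above the interval in both. It measured 274 CPM in hMYC-12 and 68.9 CPM in hMYC-13, against 822, 585 and 631 CPM in the B-type libraries and 0.54 to 18.9 CPM in the T-type libraries. blk, a kinase of the SRC family found in B cells, left both sets: it measured 45.6 CPM in hMYC-12 and 0.59 CPM in hMYC-13, against 14.9, 21.1 and 2.21 CPM in the B-type libraries and 0.32 to 11.2 CPM in the T-type libraries. It was the single member of the list above all 10 set libraries by at least 2-fold, and only in hMYC-12.

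Of the B transcription factors, PAX5, which fixes B identity, measured 51.1 CPM in hMYC-12 and 11.5 CPM in hMYC-13, against 288, 147 and 251 CPM in the B-type libraries and 0 to 5.79 CPM in the T-type libraries. EBF1 (ENSDARG00000099849), which acts before PAX5, measured 45.4 CPM in hMYC-12 and 9.38 CPM in hMYC-13, against 228, 134 and 190 CPM in the B-type libraries and at most 6.66 CPM in the T-type libraries. For both genes each leukemia was above every T-type library, on 504 and 136 counts for PAX5 and 448 and 111 counts for EBF1. The 5 B-high factors, PAX5, EBF1, SPI1, BCL11A and a FOXO1 identifier (ENSDARG00000061549), had a median position of 18.7% in hMYC-12 and 3.76% in hMYC-13.

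SPI1, a factor of B and myeloid cells, was under the interval in both leukemias, at 58.3 CPM in hMYC-12 and 11.5 CPM in hMYC-13, against 274, 294 and 388 CPM in the B-type libraries and 1.1 to 10.45 CPM in the T-type libraries. Of the 10 listed factors at 10 CPM, 7 were in the interval in each leukemia, against 77% of all genes in hMYC-12 and 64.2% in hMYC-13. hMYC-12 had 1 above it, ID3, an inhibitor of E proteins, at 469 CPM in hMYC-12 and 49.2 CPM in hMYC-13, against 701, 1162 and 409 CPM in the B-type libraries and 9.72 to 109 CPM in the T-type libraries. ID3 was not B-high because the separation between the sets was under 4-fold. BACH2, at 67.1 CPM in hMYC-12 and 59.2 CPM in hMYC-13, was under the interval and under every set library in both. IRF8, at 2.03 CPM, was under the interval in hMYC-13. Summed over the list, the levels were 1659 CPM in hMYC-12 and 512 CPM in hMYC-13. Both lay within the 204 to 2468 CPM of the T-type libraries, and the B-type libraries held 2367 to 3621 CPM. The largest member of this sum in hMYC-12, in hMYC-13 and in hMYC-8, the highest T-type library, was irf4b, which did not separate the sets. The sum was not computed without irf4b, so it does not place the B factors as a group.

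Immunoglobulin transcripts varied more between genes. The light chain constant gene igic1s1 measured 105 CPM in hMYC-12 and 29.7 CPM in hMYC-13, against 278, 213 and 258 CPM in the B-type libraries and at most 5.98 CPM in the T-type libraries, above the interval in both. The light chain gene igl1c3 measured 49.9 CPM in hMYC-12 and 3.63 CPM in hMYC-13, against 108, 107 and 215 CPM in the B-type libraries, in the interval in hMYC-12 and below it in hMYC-13. ight, the heavy chain gene of the fish class IgT, measured 25.5 CPM in hMYC-12 and 1.77 CPM in hMYC-13, against 305, 99.2 and 97.6 CPM in the B-type libraries and up to 6.55 CPM in the T-type libraries. hMYC-13 was below the interval for ight and within the T-type range.

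The class IgM gene ighm did not separate the sets, so it says nothing of a fraction. It measured 121 CPM in hMYC-12 and 48.5 CPM in hMYC-13, against 121, 54.6 and 11.3 CPM in the B-type libraries and 9.13 to 202 CPM in the T-type libraries, with the highest value of all in hMYC-14. Variable segments of the heavy chain, named after their values were seen, differed between the leukemias: ighv13-2 had 67 counts and ighv6-1 had 66 in hMYC-12, with 0 and 1 in hMYC-13, while ighv2-2 had 0 in hMYC-12 and 37 in hMYC-13. All 10 light chain identifiers reached 20 counts in each B-type library, while 7 did so in hMYC-12 and 6 in hMYC-13. In the T-type libraries 0 to 3 did. How reads were assigned among similar segments was not examined, so segment counts are uncertain.

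**Figure D3:**
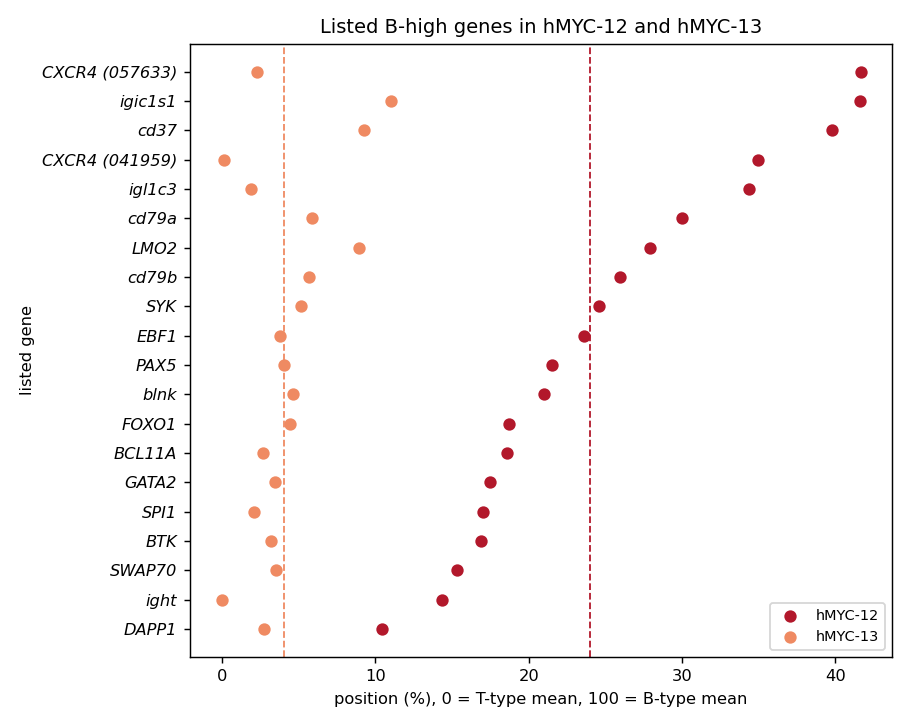
Position between the T-type mean (0%) and the B-type mean (100%) of the listed genes that are B-high, in hMYC-12 and hMYC-13, with the median over all B-high genes of each leukemia as a dashed line. The genes lie on both sides of the lines at 24.0% and 4.06%, with DAPP1 at 10.4% and cd37 at 39.8% in hMYC-12.

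The levels of hMYC-12 and hMYC-13 were also set in ratio. Over the 384 B-high genes the CPM ratio had a median of 3.61 (quartiles 2.40 and 6.20), and 364 genes were higher in hMYC-12. The 12 B-high genes of the receptor and factor lists other than blnk ran from 2.86 for FOXO1 to 5.14 for BCL11A. cd79a had a ratio of 3.90, cd79b 4.10, BTK 3.85, SYK 3.88 and cd37 3.98, and PAX5 had 4.44 and EBF1 4.84. Among other listed genes with higher B-type than T-type means, igic1s1 had a ratio of 3.54, GATA2 3.01 and a CD81 identifier (ENSDARG00000036080) 3.11. PLCG2 had 4.18, but in hMYC-13 it measured 18.6 CPM, 1.43-fold under the lowest of the 10 set libraries. Others had lower ratios, among them 1.08 for LYN, 2.14 for pik3ap1 and 0.3996 for ighd, which stayed under 10 CPM in every library. Higher ratios were measured in others, with 9.24 and 7.11 for the CXCR4 identifiers ENSDARG00000057633 and ENSDARG00000041959, 9.53 for ID3, 14.4 for ight and 13.7 for igl1c3. The positions of the 384 genes in the 2 leukemias had a Spearman rho of 0.108 across genes, which share their denominators and are not independent. Which B-high genes were relatively strong in hMYC-12 thus told little of which were strong in hMYC-13.

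Of the 384 B-high genes, 236 (61.5%) lay in the mixture interval in hMYC-12, 66 below and 82 above it. In hMYC-13, 238 (62.0%) lay in it, 61 below and 85 above it. Over all 11905 genes the shares in the interval were 77% in hMYC-12 and 64.2% in hMYC-13, so the B-high genes, whose median set the fraction, were not more often in it than genes at large. The T-type range alone held 74.3% of the 11905 genes in hMYC-12 and 64.8% in hMYC-13. Each T-type library had 49.1% (hMYC-2) to 79.6% (hMYC-8) of them in the range of the other T-type libraries. No B-high gene exceeded its highest B-type library in either leukemia. The interval at 4.06% overlaps the T-type range for many genes, and with the fraction set to 0 it still held 41.4% of the B-high genes in hMYC-13, against 2.34% in hMYC-12.

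Genes at the ends of the position scale differed between the leukemias. In hMYC-12 the highest positions were those of PTN, a secreted growth factor, at 91.8% and MAP2K1, a kinase of the RAS pathway, at 90.2%, followed by zgc:136254, si:ch211-251f6.7 and ENSDARG00000073763 at 83.4%, 77.0% and 74.6%. MAP2K1 measured 14.1 CPM in hMYC-12 and 1.1 CPM in hMYC-13, against 14.8, 16.7 and 14.7 CPM in the B-type libraries and 0.86 to 3.56 CPM in the T-type libraries. It was just under the B-type range in hMYC-12 and within the T-type range in hMYC-13. The lowest in hMYC-12 were ENSDARG00000104356 at -0.15%, zgc:56585, LRRC17, tead1a and rnf144b, the last at 4.55%.

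In hMYC-13 the highest positions were those of JAM3, a junctional adhesion molecule, at 105%, PXN, a focal adhesion adaptor, at 86.0%, ACSL1, an acyl-CoA synthetase, at 85.0%, si:ch211-212c13.10 at 83.6% and ASS1, an enzyme of arginine synthesis, at 59.6%. JAM3 measured 7.80 CPM in hMYC-12 and 41.8 CPM in hMYC-13, against 47.1, 29.6 and 42.5 CPM in the B-type libraries and 0.09 to 4.09 CPM in the T-type libraries. It was at a B-type level in hMYC-13 and at a position of 17.5% in hMYC-12. Genes within or above their B-type range numbered 29 in hMYC-12 and 5 in hMYC-13. The lowest positions in hMYC-13 were those of MAP2K1 at -6.81%, pstpip1b, si:ch73-264p11.1, VAT1 and FCHO2.

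**Figure D4:**
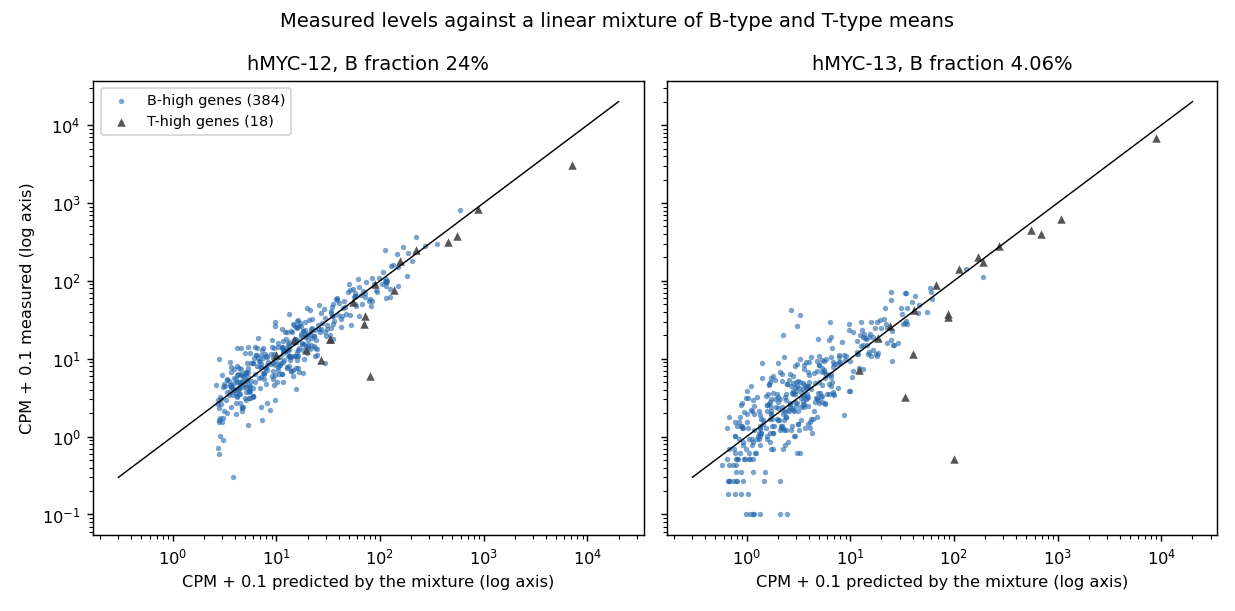
Measured CPM against the CPM predicted by a linear mixture of the B-type and T-type means, both plus 0.1 on log axes, for B-high (circles) and T-high genes (triangles), with hMYC-12 at a B fraction of 24.0% and hMYC-13 at 4.06%. The B-high genes spread around the line of equality in both, more widely in hMYC-13, and most of the 18 T-high genes lie below it in each.

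A mixture must also dilute the T side, and this was read from genes that did not set the fraction. Only 18 genes were T-high by the mirrored rule, and the B-type libraries themselves held T transcripts, as with the 330 CPM of lck in hMYC-4. Their median position was 50.9% in hMYC-12 and 26.2% in hMYC-13, which would put both leukemias farther from the T-type mean than the B-high genes did. T-type libraries placed against the other T-type libraries had medians from -43.4% in hMYC-11 to 50.1% in hMYC-14, so the T side does not fix a fraction. In hMYC-13 it was 45.3% without hMYC-4 and 49.6% without hMYC-14, and 9.28% with library totals in place of TMM. Of the 18 genes, 12 lay in the interval and 6 below it in hMYC-12, and 10 lay in it and 8 below it in hMYC-13. None lay above it in either.

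The recombinase gene RAG1 was the T-high gene with the highest counts. It measured 3118 CPM in hMYC-12 and 6807 CPM in hMYC-13, against 576, 871 and 99.9 CPM in the B-type libraries and 5176 to 13536 CPM, with a median of 9675, in the T-type libraries. hMYC-12 lay under every T-type library and under the lower interval limit of 3956 CPM, and hMYC-13 lay in the interval. Its partner RAG2 measured 338 CPM in hMYC-12 and 364 CPM in hMYC-13, against 440, 237 and 305 CPM in the B-type libraries and 420 to 720 CPM in the T-type libraries, below the interval in both. vsnl1b, a calcium sensor, measured 5.98 CPM in hMYC-12 and 0.42 CPM in hMYC-13, against at most 3.88 CPM in the B-type libraries and 16.6 to 212 CPM in the T-type libraries. It had the highest T-high position in both leukemias, at 96.1% and 102%. SPRED1, an inhibitor of the RAS pathway, dachc and TRAK1 were also among the 5 highest in both, with RAG1 in hMYC-12 and irgf3 in hMYC-13. The 5 lowest T-high positions were those of polm, a DNA polymerase, at 9.91%, CAPN11, MIR181B1, zgc:171686 and TP53I11 in hMYC-12, and of dip2cb at -29.4%, TP53I11, SLCO4A1, LAPTM4B and peak3 in hMYC-13.

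T cell receptor and signalling genes stayed at T-type levels. In hMYC-12, 8 of the 14 at 10 CPM lay in the mixture interval and 6 above it, against 77% and 6.64% of all genes. In hMYC-13, 13 lay in it and 1 below it, against 64.2% and 16.6% of all genes. Summed over the list, the levels were 4353 CPM in hMYC-12 and 4676 CPM in hMYC-13, against 693 to 1978 CPM in the B-type and 3815 to 6958 CPM in the T-type libraries. ZAP70, the kinase after lck, measured 552 CPM in hMYC-12 and 621 CPM in hMYC-13, against 133, 197 and 162 CPM in the B-type libraries and 511 to 1045 CPM in the T-type libraries. The coreceptor genes cd4-1 and cd8a were both present: cd4-1 measured 424 CPM in hMYC-12 and 635 CPM in hMYC-13, and cd8a 277 and 289 CPM. In the T-type libraries they ran from 272 to 979 CPM and from 208 to 325 CPM.

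hMYC-12 stood out in the T list through genes of the interval's upper side. cd28, a costimulatory receptor, measured 35.2 CPM in hMYC-12 and 1.94 CPM in hMYC-13, against 6.42, 25.5 and 2.29 CPM in the B-type libraries and 1.19 to 15.6 CPM in the T-type libraries. hMYC-12 was above all 10 set libraries, by less than 2-fold. cd247l, related to the receptor zeta chain, measured 15.5 CPM in hMYC-12 and 0.68 CPM in hMYC-13, against at most 6.94 CPM in the B-type and 3.20 CPM in the T-type libraries, 2.23-fold above the next library in hMYC-12. cd8a, ptprc and txk were also above the interval.

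Of the T transcription factors, all 10 at 10 CPM lay in the interval in hMYC-12, against 77% of all genes. In hMYC-13 6 did, against 64.2% of all genes, with GATA3, TCF7, IKZF1 and a NOTCH1 identifier (ENSDARG00000052094) below it. GATA3, needed for T commitment, measured 186 CPM in hMYC-12 and 157 CPM in hMYC-13, against 29.3, 68.8 and 6.70 CPM in the B-type libraries. In the T-type libraries it ran from 233 CPM in hMYC-14 over a median of 668 to 1009 CPM, so both leukemias lay under every T-type library. TCF7, a Notch target factor of early T cells, measured 175 CPM in hMYC-12 and 110 CPM in hMYC-13, against 15.0, 58.3 and 4.67 CPM in the B-type libraries and 175 to 574 CPM in the T-type libraries. RUNX3 measured 1807 CPM in hMYC-12 and 1152 CPM in hMYC-13, against 56.3 to 500 CPM in the B-type and 1154 to 2998 CPM in the T-type libraries. For TCF7 hMYC-13 lay under the T-type range and hMYC-12 at its lower edge, and for RUNX3 hMYC-13 lay at the lower edge.

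Some homing receptors set the leukemias apart from each other. CXCR4 (ENSDARG00000041959), a receptor that holds precursors in the marrow, measured 802 CPM in hMYC-12 and 113 CPM in hMYC-13, against 1902, 2068 and 2295 CPM in the B-type libraries and 26.3 to 198 CPM in the T-type libraries. It was above the interval in hMYC-12, in it in hMYC-13. CCR9 (ENSDARG00000055186), a thymus homing receptor, measured 2335 CPM in hMYC-12 and 374 CPM in hMYC-13, against 2322, 3729 and 2696 CPM in the B-type libraries and 874 to 2275 CPM in the T-type libraries. hMYC-13 lay 2.33-fold under the lowest of the 10 set libraries. CCR7, which guides T cells in the thymus and lymph nodes, measured 12.2 CPM in hMYC-12 and 94.1 CPM in hMYC-13, against at most 9.83 CPM in the B-type libraries and 8.18 to 50.1 CPM in the T-type libraries.

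All 12 proliferation genes at 10 CPM lay in the mixture interval in both leukemias. Over all genes, 77% lay in it in hMYC-12 and 64.2% in hMYC-13. mki67, a marker of dividing cells, measured 414 CPM in hMYC-12 and 713 CPM in hMYC-13, against 103 to 497 CPM in the B-type and 279 to 1244 CPM in the T-type libraries. Its interval in hMYC-13 was wide, from 272 to 1214 CPM. The proliferation list summed to 1459 CPM in hMYC-12 and 2713 CPM in hMYC-13, against 510 to 1659 CPM in the B-type and 800 to 3658 CPM in the T-type libraries. By this sum hMYC-13 lay above every set library but hMYC-8. The list of natural killer and cytotoxic genes summed to 368 CPM in hMYC-12 and 16.6 CPM in hMYC-13, against 57.8 to 248 CPM in the B-type and 6.87 to 391 CPM in the T-type libraries. Of 5 cytotoxic genes at 10 CPM, 4 were above the interval in hMYC-12, against 6.64% of all genes. In hMYC-13, 3 were in and 2 below it, against 64.2% and 16.6% of all genes. The perforin gene prf1.1 measured 49.0 CPM in hMYC-12 and 0.59 CPM in hMYC-13, against 17.3, 45.5 and 3.56 CPM in the B-type libraries and 0.46 to 22.2 CPM in the T-type libraries. The chemokine gene ccl36.1 had 1362 counts in hMYC-12 and 0 in hMYC-13, where a count of 0 allows up to 3. In CPM, a different scale from these counts, it ran from 13.1 to 78.0 in the B-type libraries. In the T-type libraries it ran from 0 to 30.1 CPM, with 0 counts also in hMYC-9. No gene of the cytotoxic list, ccl36.1 included, was at least 2-fold above the 10 set libraries in hMYC-12. Of 4 antigen presentation genes at 10 CPM, 3 were in the interval in each leukemia, near the shares of all genes. cd74a, the invariant chain of class II presentation, measured 453 CPM in hMYC-12 and 31.8 CPM in hMYC-13, against 347 to 1063 CPM in the B-type and 29.6 to 270 CPM in the T-type libraries. The sums of the liver list and of the list of stroma, epithelium, muscle and exocrine pancreas, given below, were highest in hMYC-12. The part of such cells in these values was not tested.

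A mixture of the sets cannot lie outside both. A gene was called outside when it was at least 2-fold above the highest, or below the lowest, of the 10 set libraries, with 20 counts in the higher library and 3 counts as floor. In hMYC-12, 249 of 13175 genes (1.89%) lay above and 5 of 9542 (0.0524%) below. In hMYC-13, 249 of 12500 (1.99%) lay above and 89 of 9542 (0.933%) below. Without hMYC-4, 405 genes lay above in hMYC-12, and 9 lay below without hMYC-2 or without hMYC-14. With T-type libraries of letter d alone, 16 lay below in hMYC-12 and 143 in hMYC-13. Placed against all 11 other libraries, hMYC-12 had 237 genes above and 3 below and hMYC-13 had 240 above and 84 below. The other 10 libraries, placed the same way, had 55 to 403 above and 10 to 235 below. Both leukemias were thus within the spread of private genes on the upper side, and hMYC-12 had fewer genes below than any other library.

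The genes outside differed between the leukemias. Only 1 gene was above in both: nxf1a (ENSDARG00000086017), a gene of the messenger RNA export factor family, measured 24.5 CPM in hMYC-12 and 27.5 CPM in hMYC-13, against 0.45 to 0.61 CPM in the B-type and 0.18 to 7.12 CPM in the T-type libraries. Only 1 was below in both, the identifier ENSDARG00000078683 named RNF14, an E3 ubiquitin ligase, at 3.85 CPM in hMYC-12 and 2.45 CPM in hMYC-13, against 14.3 to 83.7 CPM in the B-type and 8.46 to 34.2 CPM in the T-type libraries. No B-high gene was above the 10 set libraries in either leukemia.

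In hMYC-12, 11 genes exceeded the 10 set libraries at least 10-fold, and 7 of them carry no symbol. ENSDARG00000078427 had 701 counts in hMYC-12, 2 in hMYC-13 and at most 7 in a set library, and ENSDARG00000103506 had 1349, 0 and at most 24. SUFU, a brake on Hedgehog signalling, was the gene with the most reads among the top 10: it measured 575 CPM in hMYC-12 and 16.4 CPM in hMYC-13, against 22.2 to 28.4 CPM in the B-type and 17.4 to 38.6 CPM in the T-type libraries. hMYC-12 was 14.9-fold above the next library for SUFU. The others of the top 10 were ENSDARG00000103880, ENSDARG00000099074, ENSDARG00000073987, si:dkey-15h8.17, ENSDARG00000103552, wu:fk65c09 and CEMIP. CEMIP, a hyaluronan binding protein, had 81 counts in hMYC-12, 3 in hMYC-13 and at most 6 in a set library. The 5 genes below were si:dkey-109j17.5, RNF14, zgc:113377, rybpa and ZBTB20, a zinc finger repressor at 10.6 CPM in hMYC-12 and 23.2 CPM in hMYC-13, against 27.2 to 51.7 CPM in the B-type and 21.8 to 98.9 CPM in the T-type libraries.

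Genes of other tissues were among those outside in hMYC-12. The lists of liver genes, of islet genes and of ionocyte and kidney genes were chosen after these values were seen. Of 28 identifiers of liver genes, 16 lay above the 10 set libraries in hMYC-12 and 0 in hMYC-13, against 1.89% and 1.99% of all genes. Because such lists were drawn up from these values, high counts in hMYC-12 were built in and support nothing further. The liver list summed to 359 CPM in hMYC-12 and 42.9 CPM in hMYC-13, against 6.62 to 23.9 CPM in the B-type libraries and 7.27 to 150 CPM in the T-type libraries, where hMYC-14 was highest. apoa1b, an apolipoprotein, measured 70.6 CPM in hMYC-12 and 10.99 CPM in hMYC-13, against at most 4.78 CPM in the B-type and 10.7 CPM in the T-type libraries. The liver fatty acid binding protein gene fabp10a measured 11.2 CPM in hMYC-12 and 0.51 CPM in hMYC-13, with at most 1.33 CPM in any set library.

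Pancreatic islet genes summed to 23.9 CPM in hMYC-12 and 2.11 CPM in hMYC-13, against at most 2.52 CPM in the B-type and 7.24 CPM in the T-type libraries. Of the 6 islet genes, 4 were outside in hMYC-12, against 1.89% of all genes. Of 22 identifiers of ionocyte and kidney genes, 10 were outside in hMYC-12, against 1.89% of all genes, among them atp1a1a.2, a sodium pump subunit, at 30.6 CPM in hMYC-12 and 0.42 CPM in hMYC-13. That list summed to 393 CPM in hMYC-12 and 295 CPM in hMYC-13, within the 298 to 425 CPM of the B-type and 247 to 623 CPM of the T-type libraries for hMYC-12 and within the T-type range for hMYC-13. The list of stroma, epithelium, muscle and exocrine pancreas summed to 148 CPM in hMYC-12 and 21.3 CPM in hMYC-13, against 16.5 to 60.4 CPM in the B-type and 28.0 to 90.6 CPM in the T-type libraries. Its muscle gene myhz2 had 0 counts in both leukemias. Erythroid genes summed to 111 CPM in hMYC-12 and 18.3 CPM in hMYC-13, with 176 CPM in hMYC-14. Among the 12 libraries hMYC-12 had the highest sums of the liver and islet lists, which the choice of these lists built in. Its sum was also the highest for the list of stroma, epithelium, muscle and exocrine pancreas, which was not among the lists added later. The part of such cells in its other values was not tested.

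Cytokine genes were also outside in hMYC-12, with 6 of 10 identifiers against 1.89% of all genes. Their list was chosen after the values were seen, so this count supports nothing further. IL10 measured 15.7 CPM in hMYC-12 and 0.08 CPM in hMYC-13, against at most 4.51 CPM in the B-type and 3.76 CPM in the T-type libraries. fcer1g, a signalling chain of innate receptors, measured 27.5 CPM in hMYC-12 and 0.17 CPM in hMYC-13, against at most 5.86 CPM in the B-type and 7.53 CPM in the T-type libraries. il22 had 131 counts in hMYC-12 and 5 in hMYC-13. hMYC-13 lay at the low end of the range for all 3.

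In hMYC-13, 29 genes exceeded the 10 set libraries at least 10-fold. si:dkey-21h14.8 measured 8.71 CPM in hMYC-12 and 496 CPM in hMYC-13, against at most 5.05 CPM in the B-type and 6.06 CPM in the T-type libraries. si:dkey-88l16.3, map1lc3cl, a gene of the autophagy LC3 family, and NBEA had 687, 307 and 255 counts in hMYC-13, with 4, 1 and 1 in hMYC-12 and at most 10, 3 and 1 in a set library. EPHB2, an ephrin receptor, had 137 counts in hMYC-13, 3 in hMYC-12 and at most 2 in a set library, and STC2, a stanniocalcin hormone, had 281, 2 and at most 10. ENSDARG00000100801, ITGA10 and ANK1 complete the 10 farthest above with atf5b, a stress response factor at 3.14 CPM in hMYC-12 and 158 CPM in hMYC-13, against at most 7.02 CPM in the B-type and 4.75 CPM in the T-type libraries. These 10 genes were near or within the set range in hMYC-12.

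**Figure D5:**
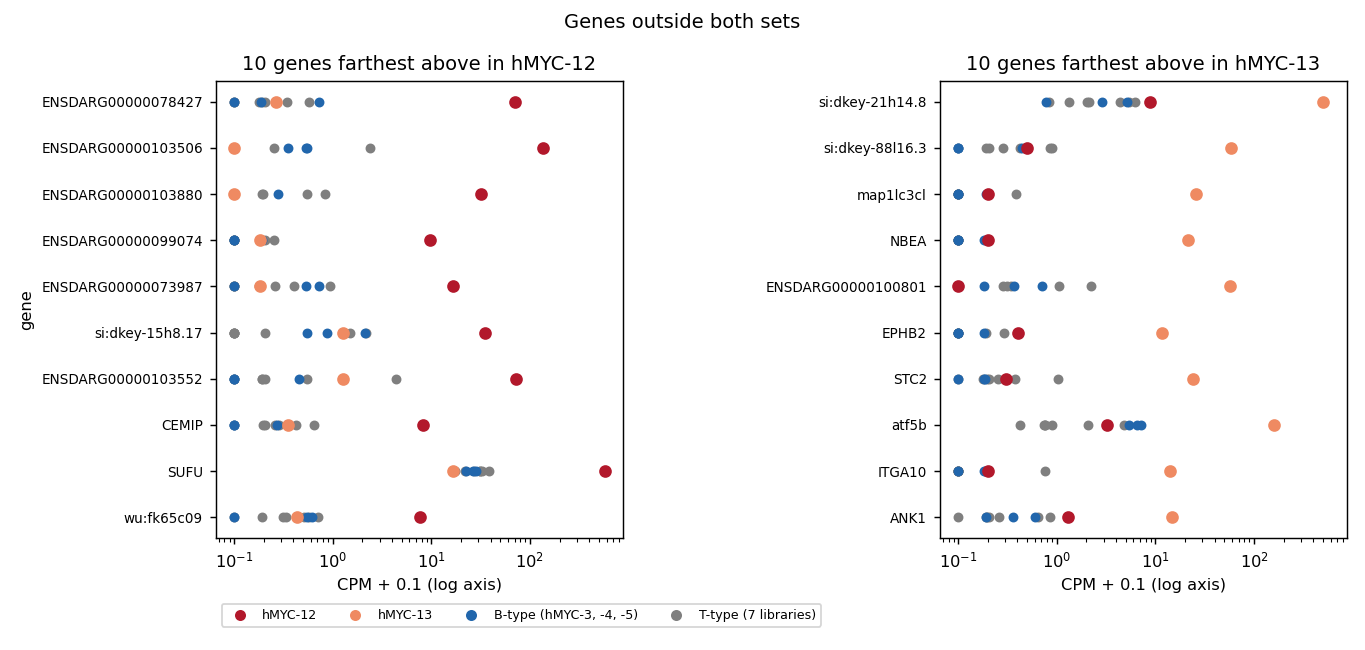
CPM plus 0.1 on a log axis of the 10 genes farthest above the 10 set libraries in hMYC-12 (left) and in hMYC-13 (right), in all 12 libraries, 1 point a library. Each set of 10 is high in 1 leukemia, while the other leukemia lies with or close to the B-type and T-type libraries.

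The 89 genes below the sets in hMYC-13 were led by MAPK8, the stress kinase JNK1. It had 11 counts in hMYC-13, 125 in hMYC-12 and at least 122 in every set library, 11.05-fold under the lowest. slc24a2, PURA, PUDP, FZD10, C7H19orf12, ENSDARG00000090548, GRAMD1C, bcl2a and prkacab were the next 9. prkacab, a catalytic subunit of protein kinase A, measured 122 CPM in hMYC-12 and 13.5 CPM in hMYC-13, against 76.1 to 102 CPM in the B-type and 101 to 150 CPM in the T-type libraries. bcl2a, which encodes a survival factor, had 68 counts in hMYC-12, 7 in hMYC-13 and at least 27 in every set library.

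Genes picked after their values were seen were RPL22L1, JUND and FOSB. RPL22L1, a ribosomal protein paralog, measured 571 CPM in hMYC-12 and 76.9 CPM in hMYC-13, against 458 to 494 CPM in the B-type and 412 to 802 CPM in the T-type libraries. FOSB measured 510 CPM in hMYC-12 and 38.6 CPM in hMYC-13, against 133 to 431 CPM in the B-type and 90.7 to 294 CPM in the T-type libraries, so the leukemias lay on opposite sides of the sets. JUND measured 313 CPM in hMYC-12 and 59.7 CPM in hMYC-13, against 350 to 481 CPM in the B-type and 146 to 577 CPM in the T-type libraries. hMYC-13 was the lowest of the 12 libraries for all 3.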

How the data were processed

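The authors deposited 1 table of read counts for 32105 zebrafish Ensembl gene identifiers and 13 columns, of which 12 were used. Columns left unmapped to a sample number 0. The submitters' processing notes name bcl2fastq, STAR, Picard, featureCounts and the build GRCz10, without versions or roles. The annotation and the strand setting of the counting are not given in the sources used here, so overlapping, antisense and near-identical genes are uncertain. A gene name table named 26269 identifiers (81.8%) and does not tell apart some paralogs that share a symbol in capitals.

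Counts were scaled with TMM (edgeR 4.0.16, R 4.3.3). Positions, intervals and lists were computed with pandas 2.3.3 and numpy 2.4.6 under Python 3.11.15. The computation was checked on simulated mixtures, in which all libraries of a set shared the same mean apart from random noise. That check does not cover the measured differences between libraries of a set, so it does not vouch for the fractions. The list of members, the sets and the gene lists were chosen with earlier results of these data known. Of 160 listed symbols 139 were matched, and 56 more were added after values were seen. Genes named are those of the lists, the 5 highest and 5 lowest positions and the 10 farthest outside in each leukemia; exceptions are stated. Alternatives were DESeq2 1.42.0 size factors, library totals, other thresholds, letter d alone, non-negative least squares and leaving out each library. No test was made. The values of 1 listed gene are not reported here.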

Additional observations from a re-analysis of the deposited data

How the results depend on the processing

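Of 190 recomputed values, 150 stayed within the limits set for them, 40 moved and 0 reversed. The B fraction moved under non-negative least squares on the 10 set libraries, to 41.8% in hMYC-12 and 12.6% in hMYC-13, or 36.8% in hMYC-12 and 10.4% in hMYC-13 with square-root weights. Without 1 set library at a time it ran from 21.4% to 25.3% in hMYC-12 and from 3.75% to 4.53% in hMYC-13. The T side fell to 9.28% in hMYC-13 with library totals and to 15.6% with DESeq2 size factors. Without 1 library it ran from 40.0% to 61.1% in hMYC-12 and from 19.3% to 49.6% in hMYC-13, where it was 45.3% without hMYC-4 and highest without hMYC-14.

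The share of B-high genes in the interval was 91.7% in hMYC-12 and 83.3% in hMYC-13 with the interval widened 1.5-fold, and 2.34% and 41.4% with the fraction at 0. In hMYC-13 it was 53.2% with T-type libraries of letter d alone and 67.6% at a minimum of 50 CPM. Without 1 library it ran from 42.9% (without hMYC-5) to 61.8% in hMYC-12 and from 53.3% to 61.9% in hMYC-13.

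Genes above the sets in hMYC-12 numbered 416 and 79 at count minimums of 4 and 100, 402 at 1.5-fold and 65 at 4-fold. In hMYC-13 they numbered 139 at a minimum of 100, 482 at 1.5-fold and 87 at 4-fold. Genes below in hMYC-12 numbered 16 with letter d alone, 8 and 2 at minimums of 4 and 100, 34 at 1.5-fold and 0 at 4-fold. In hMYC-13 they numbered 143 with letter d alone, 139 and 47 at those minimums, 273 at 1.5-fold and 18 at 4-fold. Fewer or more genes qualify under these thresholds by construction. Without 1 library, genes above ran from 252 to 405 in hMYC-12, the highest without hMYC-4, and from 256 to 316 in hMYC-13, and genes below from 5 to 9 in hMYC-12, the highest without hMYC-2 or hMYC-14, and from 93 to 112 in hMYC-13. Apart from the thresholds, the cause of these moves was not tested. No paired analysis was possible because all libraries belong to 1 labelled group.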
